A study of Mus musculus with 45 samples.

Results

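The mTORC1 regulators measured here are 10 genes chosen by name: Tsc1, Tsc2, Mtor, Rptor, Rheb, Rps6kb1, Eif4ebp1, Ddit4, Sesn2 and Flcn, out of 55401 genes in the count tables. All 10 passed the filter on low counts in both sexes, so none was left out of a test. They were read from translating ribosome affinity purification (TRAP) RNASeq, in which ribosomes carrying an EGFP-tagged L10a protein are pulled out of whole kidney and the mRNA on them is sequenced. The 45 mice fall into 6 groups: 8 noncystic males, 7 Pkd1KO males, 9 Pkd1KO+ciliaKO males, 7 noncystic females, 8 Pkd1KO females and 6 Pkd1KO+ciliaKO females.

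Every mouse was hemizygous for RosaEGFP-Rpl10a, Pax8rtTA and TetOCre, took doxycycline from postnatal day 28 to day 42 and was killed at day 49 (7 weeks). Noncystic mice were Pkd1fl/+, Pkd1KO mice were Pkd1fl/fl, and Pkd1KO+ciliaKO mice were Pkd1fl/fl with Kif3afl/fl, Kif3a being a motor subunit needed to build the primary cilium. The noncystic controls thus also received the drug and Cre, and lost 1 allele of Pkd1. Pax8rtTA with TetOCre acts in nephron tubule epithelium, so the tag marks only tubule cells in which Cre was active. The kidneys were taken before cysts form, and the design asks which tubule mRNAs follow loss of polycystin-1 when cilia are present and which do not.

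mTORC1 is a kinase complex at the lysosome that raises protein synthesis and cell growth and restrains autophagy. Its kinase is the product of Mtor and its substrate-binding subunit that of Rptor. The small GTPase Rheb switches the kinase on, and the TSC complex of Tsc1 and Tsc2 switches Rheb off. Ddit4 and Sesn2 are stress-induced inhibitors, Flcn works with amino acid sensing at the lysosome, and Rps6kb1 and Eif4ebp1 encode the best known substrates, S6 kinase 1 and 4E-BP1. Raised mTORC1 activity is a known feature of polycystic kidneys, and inherited loss of TSC2 together with PKD1 gives early, severe cysts. The activity is set mainly on proteins, by phosphorylation and location, and mRNA levels do not measure it.

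Between 80874556 and 132958186 fragments were counted per mouse (median 103070359), and the lowest count of any member in any mouse was 1074, for Eif4ebp1, so differences between mice rather than counting error set the precision. Kif3a ran from 4.90 to 7.45 CPM (a count as a share of its library after TMM scaling) in Pkd1KO+ciliaKO males and from 13.8 to 29.2 in the other males. The library labelled noncystic female 5 had 6.69 CPM of Kif3a, against 23.2 to 25.3 in the other noncystic females, and the library labelled Pkd1KO+ciliaKO female 6 had 20.7, against 6.56 to 8.47, so both went against their labels. Calls among females are given with and without them. Pkd1 counts cover the whole gene, of which Cre removes a part, and ranged from 33.2 to 49.8 CPM in Pkd1KO males and from 36.3 to 84.9 in noncystic males. Along the first principal component of the male libraries, noncystic 3, Pkd1KO 4 and Pkd1KO+ciliaKO 6 and 8 stood apart, at 33.1 to 61.3 where the next male was at 12.9. The 5 proximal tubule markers summed to 4267 to 10766 CPM and the 4 thick ascending limb markers to 1991 to 5179. The 4 T cell markers stayed between 0.118 and 8.66 and the 4 B cell markers between 0.337 and 1.59. Markers of fibroblasts and pericytes (132 to 663 CPM), endothelium (49 to 316), macrophages (35.8 to 244), podocytes (36.8 to 161) and mast cells (16.8 to 41.7) were present at lower level than those of tubules. The macrophage and mast cell sums mainly followed Csf1r (median 65.8 CPM) and Kit (24.7 CPM).

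Compared per length, in the deposited TPM (a share of all transcripts, corrected for gene length and made by the authors for each sex separately), Mtor was the highest of the 10 mRNAs in both sexes, with a median of 111 TPM over the 24 males and 73.0 over the 21 females. Rheb, Sesn2, Ddit4 and Tsc2 followed in males, with medians of 41.6, 38.0, 36.2 and 35.2 TPM. Their ranges over mice overlapped, so the order among these 4 is not a firm one. Flcn lay at 29.5 TPM, and Eif4ebp1, Rps6kb1, Tsc1 and Rptor lay between 17.3 and 20.7 TPM in males. In females the medians of Sesn2 (50.4 TPM) and Rheb (45.4 TPM) exchanged places, and Rptor was again lowest, at 19.1 TPM. All 10 were thus well expressed in the pulldown, from percentile 57.9 of tested genes for Rptor in females to percentile 91.3 for Mtor in males.

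**Figure D1:**
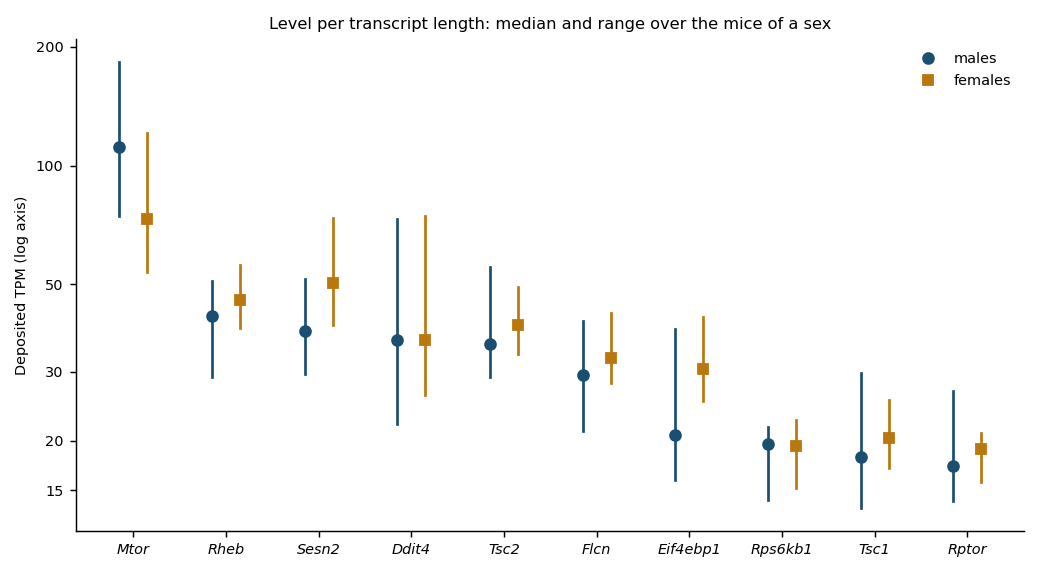
Deposited TPM of each member (log axis), as the median (symbol) and the range (line) over the 24 males and the 21 females, in the order of the male medians. Mtor stands above the rest at 111 TPM in males, and Rptor is lowest at 17.3 TPM.

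The members differed in how much they varied within a group. The coefficient of variation of CPM, as the median over the 6 groups, was 7.12% for Rptor, 7.50% for Rheb and 7.66% for Rps6kb1, against 14.2% for the median tested gene. Ddit4 (30.8%) and Mtor (22.5%) were the most variable members. Over all 45 mice, Mtor ranged 3.68-fold and Ddit4 3.42-fold from the lowest to the highest mouse, whereas Rheb ranged 1.37-fold.

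**Figure D2:**
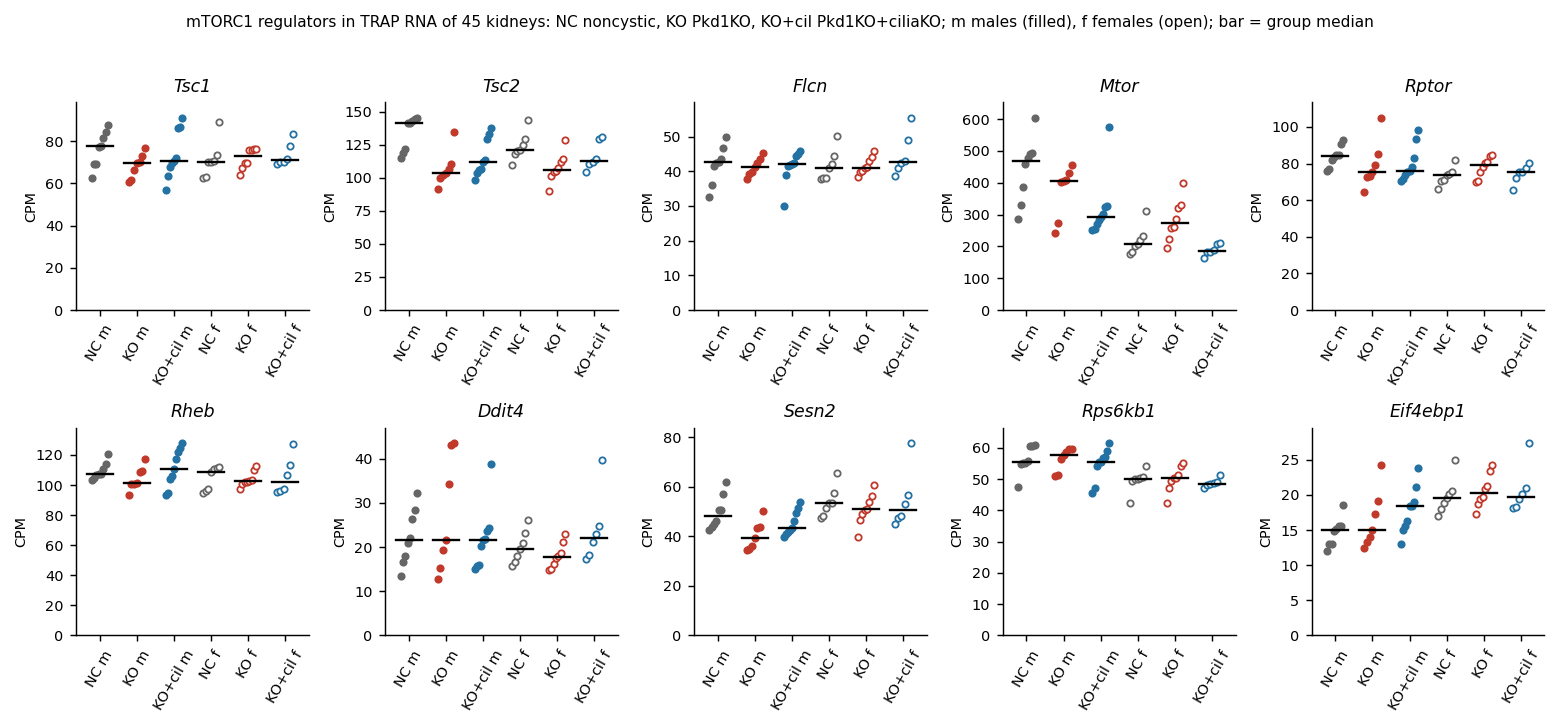
CPM of each member in every mouse (points) by genotype and sex, with the group median (bar); axes start at 0. Most members overlap across all 6 groups, Tsc2 sits lower in Pkd1KO than in noncystic males, and Mtor is higher in males than in females.

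Tsc2, the GTPase-activating subunit of the TSC complex, was the only member called in Pkd1KO against noncystic males, and it fell. It lies on chromosome 17 (24595816 to 24632630, minus strand, GRCm38). Noncystic males had a lowest value of 115, a median of 141 and a highest of 145 CPM, and Pkd1KO males had 91.8, 103 and 135 CPM. All 7 Pkd1KO males lay below the noncystic median and 6 of them below every noncystic male, with Pkd1KO male 2 inside the noncystic range. The noncystic males themselves fell into 5 mice at 141 to 145 CPM and 3 mice at 115 to 122 CPM. The log2 fold change was -0.32 (SE 0.0796), a ratio of 0.799, with an adjusted p of 0.0224 in edgeR's quasi-likelihood test. Of all genes tested in this comparison 6.3% were called at an adjusted p of at most 0.05, and 1 of 10 members was.

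Leaving out the 4 males that stood apart took away the call on Tsc2, with a log2 fold change of -0.27 and an adjusted p of 0.0681. Over 24 alternative settings the log2 fold change ran from -0.39 to -0.27 and the adjusted p from 0.00361 to 0.0681. Of the 4 males, Pkd1KO male 4 had the lowest Tsc2 of its group, at 91.8 CPM, and the summed proximal tubule markers were lowest in the same mouse, at 4267 CPM. Over the male groups those markers had a median of 9686 CPM in noncystic and 7319 CPM in Pkd1KO mice, and their part in the Tsc2 value was not tested. In whole-kidney pulldowns, fewer cells of a type and less RNA per cell cannot be told apart.

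In females Tsc2 was lower in Pkd1KO than in noncystic mice by a smaller amount that did not pass the test. The lowest, median and highest values were 110, 121 and 143 CPM in noncystic and 89.7, 106 and 129 CPM in Pkd1KO females, and 5 of 8 Pkd1KO females lay below every noncystic female. The log2 fold change was -0.20 (SE 0.0685, adjusted p = 0.138, 95% interval -0.33 to -0.06), and without the 2 female libraries that went against their labels it was -0.22 (adjusted p = 0.0954). The male and female changes differed by -0.12 on the log2 scale, and the test of that difference gave an adjusted p of 0.862.

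Pkd1KO+ciliaKO mice took a place between the other groups in median Tsc2 in both sexes, without passing a test against either. Values were 98.3, 112 and 138 CPM in males and 105, 113 and 130 CPM in females (lowest, median, highest). Against noncystic mice the log2 fold change was -0.21 (SE 0.0745, adjusted p = 0.0815) in males and -0.08 (adjusted p = 0.508) in females, where it was -0.11 (adjusted p = 0.434) without the 2 female libraries. Against Pkd1KO+ciliaKO mice, Pkd1KO mice had a log2 fold change of -0.11 in males (adjusted p = 0.513) and -0.12 in females (adjusted p = 0.315, and 0.350 without the 2 female libraries). In males both the call against noncystic and the size of the change differed between settings. Without Pkd1KO+ciliaKO male 8, the highest of its group at 138 CPM, Tsc2 was called (-0.24, adjusted p = 0.0437). Tsc2 was also called without male 9 (-0.24, adjusted p = 0.0499) and without the 4 males that stood apart (-0.27, adjusted p = 0.0248). With all mice kept, DESeq2 also called it (-0.22, adjusted p = 0.0476). Over 26 settings the log2 fold change ran from -0.27 to -0.12 and the adjusted p from 0.0248 to 0.536. In the female comparison of both knockouts, the deposited TPM with limma gave a call on Tsc2 (log2 fold change -0.21, adjusted p = 0.0383, within 0.0374 to 0.562 over 23 settings) where the counts did not.

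Tsc2 adjoins Pkd1, so its count and its chromosome both bear on these values. Both genes run toward each other on opposite strands, and at their 3′ ends 693 bases of the 9620 exon bases of Tsc2 (7.20%) are also exon of Pkd1. Whether the counting used strand is not given in the sources used here, and without strand, reads in that stretch cannot be assigned to one gene. Pkd1KO and Pkd1KO+ciliaKO mice carry the floxed Pkd1 allele on both chromosomes and noncystic mice on 1, so in comparisons with noncystic mice the loss of Pkd1 and the chromosome segment around the floxed allele cannot be told apart. The Pkd1 count, over the whole gene, had a log2 fold change of -0.45 (SE 0.155, adjusted p = 0.0991) in males and -0.22 (adjusted p = 0.418) in females.

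At its other end Tsc2 starts close to Nthl1, a DNA repair glycosylase read in the opposite direction, and the stretch between both RefSeq start sites is shown because it lies upstream of both genes by those starts. In the annotation used for the counts, both genes begin slightly inside it, so that it holds 3 bases of a Tsc2 exon and 2 bases of an Nthl1 exon. It was taken from RefSeq (GRCm38.p6, chr17:24632628-24632681, 54 bases) and is written on the Tsc2 strand, with the 1 match to an ETS motif (CCGGAAGT) in capitals at the Tsc2 end, where its last 3 bases are those of the Tsc2 exon.
Tsc2 to Nthl1: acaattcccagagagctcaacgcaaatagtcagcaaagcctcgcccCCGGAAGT
That motif occurs in the 250 bases upstream of the start in 2.88% of 32851 RefSeq promoters, and upstream of 2 of the 9 members with an entry (Tsc2 and Mtor). Nthl1 did not follow Tsc2 in size: its log2 fold change in Pkd1KO against noncystic males was 0.07 (adjusted p = 0.711).

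Of the 14 other tested genes within 100 kb of Tsc2, 1 was called in Pkd1KO against noncystic males, Syngr3, a synaptic vesicle protein 52462 bp away, with a log2 fold change of -0.79 (SE 0.218, adjusted p = 0.0409), and without the 4 males that stood apart it no longer passed (-0.77, adjusted p = 0.0605). Their median log2 fold change was 0.03 in these males, where 6 of 14 were below 0, and 6.3% of all genes were called. In Pkd1KO against noncystic females the median was -0.10, 10 of 14 were below 0 and 2 were called where 3.34% of all genes were: Rps2, a ribosomal protein gene, at -0.25 (adjusted p = 0.0456) and Rpl3l, a ribosomal protein L3 relative, at -0.87 (adjusted p = 0.0108). Without the 2 female libraries Rpl3l kept its call (-0.95, adjusted p = 0.00529), Rps2 lost it (-0.24, adjusted p = 0.0751) and Syngr3 gained one (-0.93, adjusted p = 0.0272). Against noncystic mice, Pkd1KO+ciliaKO males had a median of -0.08 over the 14 genes with 11 below 0, and Pkd1KO+ciliaKO females had -0.09 with 9 below 0. Between both knockouts the median was 0.06 in males, with 6 below 0, and -0.12 in females, with 9 below 0. Genes below 0 outnumbered those above it in 4 of the 6 genotype comparisons, where the median of all tested genes lay between -0.01 and 0.01. The 4 include the female comparison of both knockouts, which both carry the floxed allele on both chromosomes. The comparisons share mice, and Pkd1 itself is among the 14 genes. Syngr3 was also lower in Pkd1KO+ciliaKO than in noncystic males, at -1.15 (adjusted p = 0.00274, and 0.00634 without the 4 males), where 8.89% of all genes were called. Rpl3l was lower in Pkd1KO than in Pkd1KO+ciliaKO females at -0.59 (adjusted p = 0.0471, and 0.0871 without the 2 female libraries), where 11.7% of all genes were called. The remaining genes near Tsc2 (Caskin1, Traf7, Rab26, Pkd1, Nthl1, Slc9a3r2, Zfp598, Gfer, Noxo1, Tbl3 and Ndufb10) passed in no genotype comparison with all mice kept. Leaving out the 4 males added a call on Rpl3l in Pkd1KO+ciliaKO against noncystic males (-0.56, adjusted p = 0.0131), and leaving out the 2 female libraries added 1 on Ndufb10 in the same comparison of females (-0.28, adjusted p = 0.0188).

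**Figure D3:**
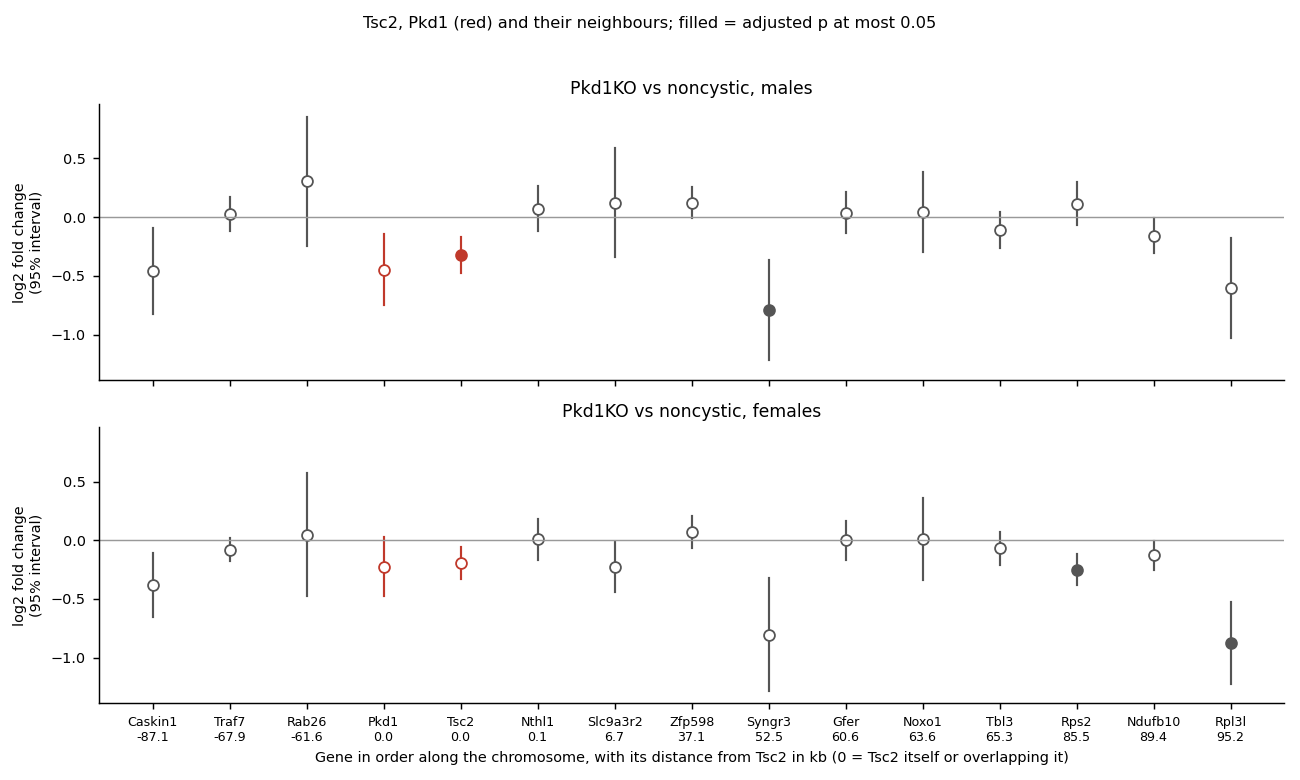
Log2 fold change with its approximate 95% interval for Tsc2, Pkd1 and the 13 other tested genes within 100 kb, in chromosomal order with the distance from Tsc2 in kb, for Pkd1KO against noncystic males (top) and females (bottom). In males Tsc2 (-0.32) and Syngr3 (-0.79) are filled as called, and Nthl1 beside Tsc2 is at 0.07.

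Tsc1, the scaffold of the TSC complex on chromosome 2, was called in no comparison. Its group medians lay between 69.7 CPM in Pkd1KO males and 77.6 CPM in noncystic males, with all 6 groups overlapping. The largest of its 6 log2 fold changes between genotypes was -0.16 (SE 0.0769, adjusted p = 0.232), in Pkd1KO against noncystic males. Rheb, the GTPase that TSC restrains, had group medians between 101 and 111 CPM, and its largest log2 fold change was -0.09 (adjusted p = 0.532), in Pkd1KO against Pkd1KO+ciliaKO males.

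Mtor, the kinase itself, on chromosome 4 (148448611 to 148557683, plus strand), was the only member called between Pkd1KO and Pkd1KO+ciliaKO females, and it was higher in Pkd1KO. Pkd1KO+ciliaKO females had a lowest value of 164, a median of 186 and a highest of 211 CPM, and Pkd1KO females had 194, 274 and 399 CPM. Of 8 Pkd1KO females, 7 lay above every Pkd1KO+ciliaKO female, and only Pkd1KO female 1 lay within their range. The log2 fold change was 0.58 (SE 0.132), a ratio of 1.5, with an adjusted p of 0.0108. In this comparison 11.7% of all tested genes were called, and 1 of 10 members was. Without the 2 female libraries that went against their labels Mtor was still called (0.58, adjusted p = 0.0203), and over 23 alternative settings the log2 fold change ran from 0.45 to 0.64 and the adjusted p from 0.00059 to 0.0447.

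Against noncystic females (175, 209 and 311 CPM), Mtor did not pass in either knockout. The log2 fold change was 0.38 in Pkd1KO females (SE 0.143, adjusted p = 0.174) and -0.21 in Pkd1KO+ciliaKO females (adjusted p = 0.308). Without the 2 female libraries these were 0.34 (adjusted p = 0.260) and -0.25 (adjusted p = 0.260). The comparisons share their control mice, so they are not independent. The proximal tubule markers summed to medians of 7977 CPM in Pkd1KO, 7289 CPM in Pkd1KO+ciliaKO and 7715 CPM in noncystic females, and the thick ascending limb markers to 3491, 4488 and 3591 CPM. The part of these markers in the Mtor values was not tested.

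In males the order of Mtor was another one. Noncystic males had 286, 468 and 605 CPM, Pkd1KO males 241, 404 and 455 CPM, and Pkd1KO+ciliaKO males 250, 291 and 576 CPM (lowest, median, highest). The highest Pkd1KO+ciliaKO value came from mouse 9 alone, and the other 8 lay at 250 to 326 CPM. Pkd1KO+ciliaKO against noncystic males gave a log2 fold change of -0.46 (SE 0.165, adjusted p = 0.0874), and without mouse 9 it gave -0.62 (adjusted p = 0.00498) and without noncystic male 5, the lowest of its group, -0.54 (adjusted p = 0.0472), within a range over 26 settings of -0.62 to -0.38 for the log2 fold change and 0.00498 to 0.193 for the adjusted p. Pkd1KO males did not differ from noncystic males (-0.24, adjusted p = 0.403) or from Pkd1KO+ciliaKO males (0.22, adjusted p = 0.491) by an amount that passed.

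**Figure D4:**
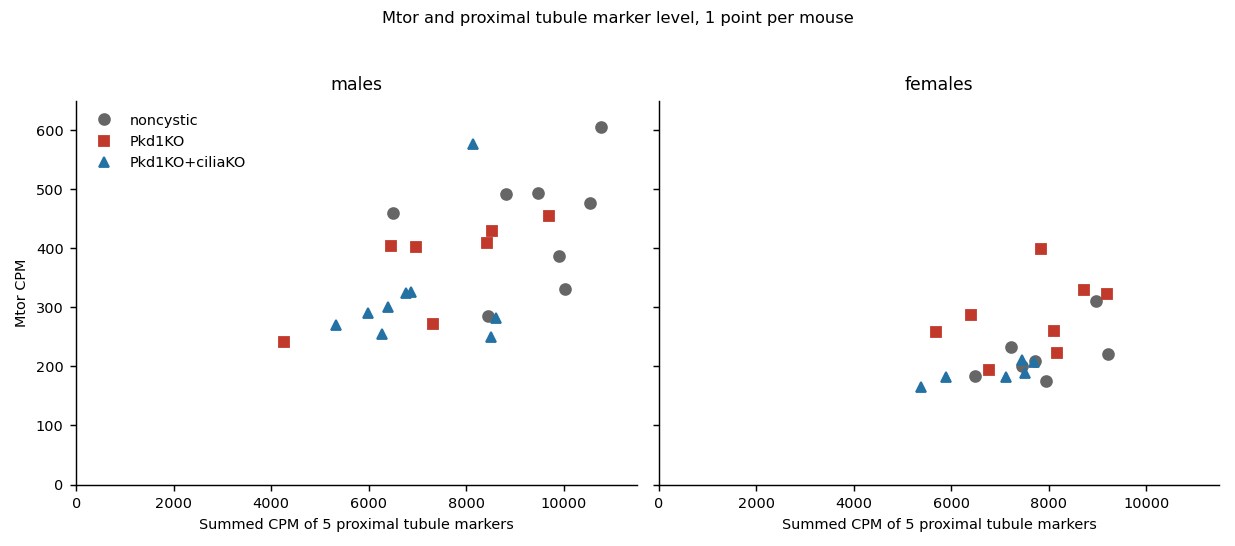
Mtor CPM against the summed CPM of 5 proximal tubule markers, 1 point per mouse, males left and females right. Pkd1KO females (194 to 399 CPM of Mtor) mostly sit above Pkd1KO+ciliaKO females (164 to 211 CPM), and Pkd1KO+ciliaKO male 9 stands alone at 576 CPM.

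The change of Mtor between Pkd1KO and noncystic mice was negative in males and positive in females. The test of the difference gave -0.62 on the log2 scale (SE 0.230, unadjusted p = 0.00996), which did not survive adjustment over all genes (adjusted p = 0.418 in edgeR). It was -0.49 without the 2 female libraries and the 4 males, with an unadjusted p of 0.0517 in the same edgeR fit. None of the 10 members passed in any of the 3 tests of a sex difference, and none with DESeq2. These tests (Pkd1KO against noncystic, Pkd1KO against Pkd1KO+ciliaKO, and Pkd1KO+ciliaKO against noncystic) called 0.0126%, 0.221% and 0.0316% of all genes. At an unadjusted p under 0.05 they had 1, 1 and 0 of 10 members, where 8.08%, 7.94% and 5.49% of all genes had one.

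Between noncystic males and females Mtor differed most of the members. It was higher in males by 1.03 on the log2 scale (SE 0.152), a ratio of 2.04, with an adjusted p of 8.0e-05. Of 8 noncystic males, 7 lay above every noncystic female, and the exception, noncystic male 5 at 286 CPM, lay below noncystic female 4 at 311 CPM. The promoter of Mtor is shown because this mRNA carries both the largest sex difference and the only call between the knockouts. These are the 250 bases before the RefSeq start (GRCm38.p6, chr4:148448332-148448581, plus strand), with matches on either strand to an ETS motif (CCGGAAGT), a GC box (GGGCGG) and a CCAAT box (CCAAT) in capitals, none of which overlap.
Mtor: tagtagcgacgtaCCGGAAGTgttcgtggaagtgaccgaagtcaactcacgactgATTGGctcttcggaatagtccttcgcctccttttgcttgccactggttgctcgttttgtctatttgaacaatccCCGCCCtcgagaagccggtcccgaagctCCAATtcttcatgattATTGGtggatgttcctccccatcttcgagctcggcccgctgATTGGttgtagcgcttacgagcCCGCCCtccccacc
The stretch holds 1 ETS, 2 GC box and 4 CCAAT box matches, where 32.7% of all promoters hold at least 1 GC box and 33.8% at least 1 CCAAT box. Upstream of the other members with an entry, a GC box was found for Rheb, Ddit4 and Sesn2 and a CCAAT box for Ddit4 and Sesn2. Of the other motifs searched on both strands, an E-box (CACGTG, 6.02% of all promoters) was found for Rheb and a CRE (TGACGTCA, 1.55%) for Flcn, and the perfect palindromes of the androgen and oestrogen response elements (0.00913% and 0.0213%) for none of the 9. Eif4ebp1 had no entry.

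A further 3 members differed between noncystic males and females, which with Mtor made 4 of 10 where 27.5% of all tested genes were called. Rptor, the scaffold subunit, was higher in males (75.9, 83.9 and 93.0 CPM, lowest, median and highest) than in females (66.2, 73.9 and 81.8 CPM), with a log2 fold change of 0.21 (SE 0.0565, adjusted p = 0.00981). Rps6kb1, S6 kinase 1, was higher in males (47.4, 55.6 and 61.1 CPM) than in females (42.3, 50.2 and 54.3 CPM), with a log2 fold change of 0.20 (SE 0.0643, adjusted p = 0.0262), and 7 of 8 males lay above every female. Eif4ebp1, the translation repressor 4E-BP1, was lower in males (12.1, 15 and 18.6 CPM) than in females (17, 19.5 and 25.0 CPM), with a log2 fold change of -0.41 (SE 0.0931, adjusted p = 0.00312), and 7 of 8 males lay below every female. The same 4 members were called without the 2 female libraries and the 4 males. The 5 tubule injury markers summed to 376 to 752 CPM in noncystic males and to 1078 to 1542 CPM in noncystic females. Over all mice, Spp1 had a median of 1003 CPM, against 20.4 for Havcr1, 10.1 for Vcam1, 5.41 for Lcn2 and 2.89 for Krt20. These sums thus mainly follow Spp1, and the other markers are not given by sex here. The part of these markers in the sex differences of the 4 members was not tested.

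Among the stress-induced inhibitors, Sesn2, a leucine sensor that holds mTORC1 down, came nearest to a call in Pkd1KO against noncystic males. Values were 42.6, 48.3 and 62.1 CPM in noncystic males and 34.6, 39.3 and 50.4 CPM in Pkd1KO males, and 4 of 7 Pkd1KO males lay below every noncystic male. The log2 fold change was -0.31 (SE 0.0995, adjusted p = 0.0806). Without Pkd1KO male 3 it passed (-0.37, adjusted p = 0.0381), as it did with the 3 genotypes in one fit, and over 24 settings the adjusted p ran from 0.0381 to 0.176. In females the same comparison gave -0.08 (adjusted p = 0.735), with medians of 53.3 CPM in noncystic and 50.9 CPM in Pkd1KO mice.

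Ddit4, also known as REDD1, acts through the TSC complex and is induced by low oxygen and glucocorticoids. It had the widest spread within groups, and its values in Pkd1KO males were split, with 3 mice at 34.3 to 43.5 CPM and 4 at 12.7 to 21.5 CPM. The noncystic males lay at 13.5 to 32.3 CPM and the log2 fold change was 0.28 (adjusted p = 0.579). In females it was lower in Pkd1KO (14.7 to 22.9 CPM) than in Pkd1KO+ciliaKO mice (17.2 to 39.7 CPM) by a log2 fold change of -0.41 (SE 0.162, adjusted p = 0.108), where the highest value came from mouse 1, and of -0.48 (adjusted p = 0.0773) without the 2 female libraries. The male and female changes between both knockouts differed by 0.72 (SE 0.311, unadjusted p = 0.0259, adjusted p = 0.536).

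Flcn, folliculin, had group medians between 41.0 and 42.6 CPM, and its largest log2 fold change was -0.11 (adjusted p = 0.374), in Pkd1KO against Pkd1KO+ciliaKO females. It is the member nearest to Kif3a on chromosome 11, 6.19 Mb away, where Rps6kb1 lies 32.9 Mb and Rptor 66.0 Mb away, and none of these 3 was called in a comparison with Pkd1KO+ciliaKO mice. Exons of Rps6kb1 overlap those of Rnft1 on the other strand by 155 bases (1.79% of its exon bases), and exons of Rptor overlap those of Rptoros by 84 bases (0.624%), so their counts share the same limit as that of Tsc2. Rps6kb1 had group medians between 48.5 and 57.7 CPM and no genotype difference beyond 0.04 in size on the log2 scale. Eif4ebp1 was higher in Pkd1KO+ciliaKO (13.1, 18.4 and 23.8 CPM) than in noncystic males by 0.27 (SE 0.107, adjusted p = 0.118), and of 26 alternative settings only leaving out noncystic male 3 gave a call (0.33, adjusted p = 0.0449). Rptor stayed within 0.09 of 0 on the log2 scale in all 6 genotype comparisons, and none was called.

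**Figure D5:**
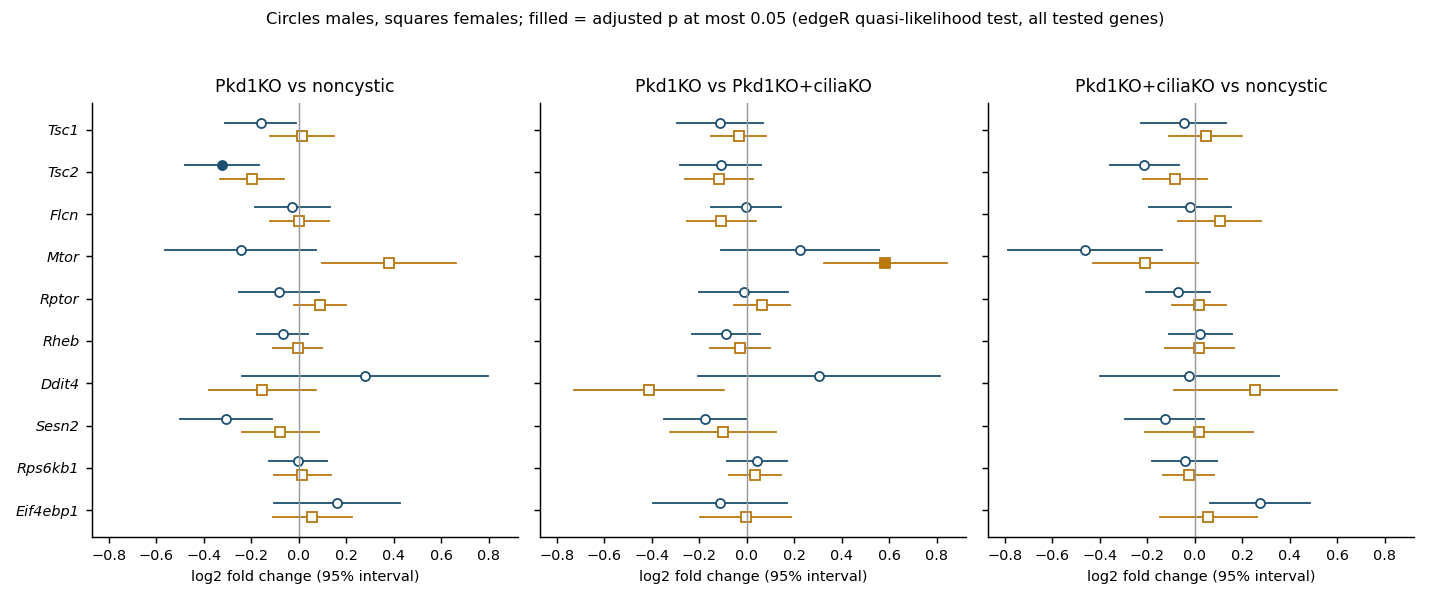
Log2 fold change with its approximate 95% interval of each member in the 6 genotype comparisons, males as circles and females as squares, filled where the adjusted p was at most 0.05. Only Tsc2 in Pkd1KO against noncystic males (-0.32) and Mtor in Pkd1KO against Pkd1KO+ciliaKO females (0.58) are filled.

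In the remaining 4 genotype comparisons no member was called by edgeR. The share of all genes called was 3.77% in Pkd1KO against Pkd1KO+ciliaKO males, 8.89% in Pkd1KO+ciliaKO against noncystic males, 3.34% in Pkd1KO against noncystic females and 2.54% in Pkd1KO+ciliaKO against noncystic females. At an unadjusted p under 0.05, in the same order, stood 0, 3 (Tsc2, Mtor and Eif4ebp1), 2 (Tsc2 and Mtor) and 0 of 10 members, where 19.7%, 24.3%, 16.4% and 21.4% of all genes did. DESeq2 called 2 members in Pkd1KO+ciliaKO against noncystic males (Tsc2 and Mtor) and 0 in the other 3. The median log2 fold change of the 10 members lay between -0.08 and 0.02 in the 6 comparisons, and that of all tested genes between -0.01 and 0.01.

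Around the members, 81 further genes of the pathway were listed in 4 groups: complex subunits and TSC partners (11 genes), the amino acid arm at the lysosome (28), growth factor and energy inputs (24) and effectors (18). All 81 passed the filter in both sexes. In Pkd1KO against noncystic males 2 were called and both fell: Ulk1, the autophagy-starting kinase that mTORC1 inhibits (-0.24, SE 0.0615, adjusted p = 0.0255), and Depdc5, a subunit of GATOR1 (-0.21, SE 0.0569, adjusted p = 0.0385). In females 1 rose, Pik3cb, a catalytic subunit of PI 3-kinase (0.19, adjusted p = 0.0430). The called share was 2.47% in males and 1.23% in females, where 6.3% and 3.34% of all genes were called. Those calls changed with the mice kept: without the 4 males Ulk1 (-0.23, adjusted p = 0.0539) and Depdc5 (-0.18, adjusted p = 0.104) did not pass while Sesn3 (0.34, adjusted p = 0.0321) and Prr5l (0.44, adjusted p = 0.0432) did, and without the 2 female libraries Pik3cb did not (0.19, adjusted p = 0.0704).

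Between Pkd1KO and Pkd1KO+ciliaKO males 1 of 81 was called, Ddit4l, a relative of Ddit4, which was lower in Pkd1KO (-0.41, SE 0.0900, adjusted p = 0.0166), where 3.77% of all genes were called, and it kept the call without the 4 males (adjusted p = 0.0151). It was lower in Pkd1KO females too (-0.75, SE 0.155, adjusted p = 0.0063), among 8 called there, of which 2 were higher and 6 lower. The next by p were Prkaa2, a catalytic subunit of AMPK (-0.24, adjusted p = 0.00892), Deptor, an mTOR-binding inhibitor (-0.22, adjusted p = 0.0201), and Pik3cb (0.21, adjusted p = 0.0233). By group, 2 of 11 complex subunits and partners, 3 of 28 lysosomal, 3 of 24 input and 0 of 18 effector genes were called, which made 9.88% of all 81 where 11.7% of all tested genes were called. Without the 2 female libraries 5 of these 8 were called again, Ddit4l, Prkaa2 and Deptor among them, while Pik3cb (adjusted p = 0.0520), Rragd and Wdr59 were not and Lamtor2 was added.

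In Pkd1KO+ciliaKO against noncystic males 5 of 81 (6.17%) were called, 2 higher and 3 lower, where 8.89% of all genes were called. Without the 4 males the same 5 were called among 11, of which 9 were lower, where 14% of all genes were called. Igf1r, the IGF1 receptor, fell (-0.30, SE 0.0667, adjusted p = 0.00857), as did Itfg2, a subunit of KICSTOR (-0.23, adjusted p = 0.0231), and Lpin1, a phosphatidate phosphatase that mTORC1 phosphorylates (-0.42, adjusted p = 0.0247). Sesn3, a relative of Sesn2, rose (0.25, adjusted p = 0.0341). In females Lamtor5, a Ragulator subunit, fell (-0.30, adjusted p = 0.0445) and was the only 1 of 81 (1.23%), where 2.54% of all genes were called. Without the 2 female libraries it was called again (-0.34, adjusted p = 0.0264) with Lamtor2 and Lamtor4, also Ragulator subunits, where 5.8% of all genes were called. The median log2 fold change of the 81 genes lay between -0.07 and 0.01 over the 6 genotype comparisons.

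Between noncystic males and females 27 of the 81 were called (33.3%), 18 higher and 9 lower in males, where 27.5% of all genes were called, 2429 higher and 1924 lower. Without the 2 female libraries and the 4 males 25 of the 27 were called again among 30. The strongest were Igf1r (0.71, SE 0.0900) and Castor2, an arginine sensor relative (0.50, SE 0.0889, adjusted p = 0.000467), both higher in males, and Rragd, a Rag GTPase (-0.46, SE 0.0930, adjusted p = 0.00138), and Prr5l, an mTORC2 partner (-0.58, SE 0.117, adjusted p = 0.00141), both lower.

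For each member the tested gene whose log2 CPM followed it most closely was sought, by the lower of its correlations over the 24 males and over the 21 females. These are descriptions, since mice of a group share genotype and the gene is the best of many. For Tsc2 it was Idh2, mitochondrial isocitrate dehydrogenase (r = 0.76 in males and 0.83 in females), and for Mtor it was Oplah, 5-oxoprolinase (0.77 and 0.82). Oplah was highest in the same mice as Mtor in 3 groups, among them Pkd1KO+ciliaKO male 9 at 340 CPM against a group median of 226 CPM. In the remaining groups it was highest in another mouse. Pkd1KO+ciliaKO female 1 had the highest Oplah (197 CPM) and the lowest Mtor (164 CPM) of its group. Tsc1 went with Zfp263 (0.84 and 0.88), Rptor with Cabin1, a calcineurin-binding protein (0.89 and 0.89), and Flcn with Zfp507 (0.71 and 0.71). Rheb went with Rab5a, an early endosome GTPase (0.78 and 0.79), and Rps6kb1 with Map2k4, a stress kinase (0.84 and 0.77). Eif4ebp1 went with Mthfd2, a mitochondrial folate enzyme (0.84 and 0.79), Sesn2 with Klc2, a kinesin light chain (0.78 and 0.79), and Ddit4 least closely with Trib1, a pseudokinase (0.68 and 0.57).

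Among the members themselves, the deviations of the 45 mice from their group means had correlations from -0.58 to 0.72 over the 45 pairs, with a median of 0.06. Tsc1 and Flcn varied together most (0.72), followed by Tsc2 and Mtor (0.57) and Tsc1 and Rptor (0.53). Rps6kb1 and Eif4ebp1, the genes of both main substrates, varied most oppositely (-0.58). All of these share the library and its depth, and genes with much exon sequence deviated as a class in some libraries. The 2694 genes with over 8 kb of merged exons lay above their group mean by a median of 0.14 on the log2 scale in noncystic male 3. In Pkd1KO+ciliaKO male 8 it was 0.18. These genes take in Tsc1, Tsc2, Mtor, Rptor and Rps6kb1, which did not all follow. In both mice Tsc1, Tsc2 and Rptor were highest or next to highest of their group. Rps6kb1 was lowest in both, at 47.4 and 45.7 CPM. Mtor stood 4 of 8 and 7 of 9 from the lowest. The part of exon length in these correlations was not tested.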

How the data were processed

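TRAP RNASeq was performed on kidneys of 45 mice, each a separate animal. The deposited counts per gene were made by the authors with featureCounts 2.0.0 over exons, after trimming by fastp 0.20.0 and STAR 2.7.9 alignment (genome GRCm38.p6). Strand and multimapping options are not given in the sources used here. The TPM values were made and deposited by the authors, in 1 table per sex.

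The filter of the study was kept (protein-coding, 6 counts or more in 20% of the animals, by sex), which left 15991 genes in males, 15968 in females and 15828 in both. Each pair of genotypes was compared within a sex by edgeR's quasi-likelihood test (edgeR 4.0.16, R 4.3.3, TMM scaling), with Benjamini-Hochberg adjustment over all tested genes and a call at an adjusted p of at most 0.05. Noncystic males were compared with noncystic females in the same way, and sex differences were tested as interactions over all 45 mice. Alternatives were DESeq2 1.42.0, limma 3.58.1 on log2(TPM + 1) and on log2(TPM + 0.1), other size factors, no filter, 3 genotypes in one fit, the replicate number as a block, and leaving out single mice, the 4 males or the 2 female libraries. Scripts were tested on simulated data. Of genes changed by 0.5 in size on the log2 scale, 54% were called in simulated Pkd1KO against noncystic males. In simulated Pkd1KO against Pkd1KO+ciliaKO females 61% were. A member that was not called may thus still have changed by such an amount. No 2 mice of a group agreed within sampling noise over the 149 pairs.

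The text names all 10 members, the tested genes within 100 kb of Tsc2, the 4 called pathway genes with the smallest p per comparison, those whose call changed without the mice named above (an alternative chosen after seeing the data, as it was for the genes near Tsc2), the gene most like each member in log2 CPM, and Pkd1 and Kif3a. The members and lists were chosen with earlier results of these data known, so no pattern among them is independent evidence. Promoters are from RefSeq, where 9 of 10 members matched. Standard errors were derived from the log2 fold change and F statistic of each fit and cover differences between mice. The 95% intervals were made from them with the normal distribution. They are approximate and narrower than the quasi-likelihood test implies. For Tsc1 in Pkd1KO against noncystic males the interval was -0.31 to -0.0096, where that test gave an unadjusted p of 0.0529.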

Additional observations from a re-analysis of the deposited data

Results flagged for a closer look

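Single mice stood far from the rest of their group in 14 of 72 combinations of gene and group examined (10 members, Pkd1 and Kif3a in 6 groups), where the gap to the next mouse passed the 95% limit of Dixon's test. Chance alone flags about 1 in 20 such groups. For Mtor, Pkd1KO+ciliaKO male 9 had 576 CPM where the others had 250 to 326, and noncystic female 4 had 311 CPM where the others had 175 to 232. Pkd1KO+ciliaKO female 1 was high in 3 members at once, with 27.4 CPM of Eif4ebp1 (others 18.1 to 20.9), 39.7 CPM of Ddit4 (others 17.2 to 24.8) and 77.6 CPM of Sesn2 (others 44.9 to 56.6). Its summed proximal tubule markers, 5374 CPM, were the lowest of its group.

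Ddit4 was also high in Pkd1KO+ciliaKO male 2, at 38.9 CPM against 15 to 24.2. Tsc1 was high in noncystic female 1, at 88.9 CPM against 62.7 to 73.6. Rps6kb1 was low in noncystic male 3, at 47.4 CPM against 54.8 to 61.1, and in noncystic female 3, at 42.3 CPM against 49.5 to 54.3. Flcn was low in Pkd1KO+ciliaKO male 1, at 29.96 CPM against 39.1 to 45.8.

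Kif3a, the gene inactivated in Pkd1KO+ciliaKO mice, stood apart in 4 mice. It was low in noncystic male 8 (13.8 CPM, others 20.4 to 25.5) and noncystic female 5 (6.69 CPM, others 23.2 to 25.3), and high in Pkd1KO male 3 (29.2 CPM, others 21.6 to 24.9) and Pkd1KO+ciliaKO female 6 (20.7 CPM, others 6.56 to 8.47).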

How the results depend on the processing

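Of the single member values under alternatives, 1505 stayed on the same side of the threshold, 14 passed it only in the alternative and 1 no longer passed it. None was called in both directions. Most member values were not called to begin with, and those that stayed uncalled count among the 1505. The 1 that no longer passed was Tsc2 in Pkd1KO against noncystic males without the 4 males. Of 1520 values 125 changed sign, all from values of at most 0.0996 on the log2 scale. In Pkd1KO against noncystic males the 1 called member became 2 with the 3 genotypes in one fit (Tsc2 and Sesn2) and 0 without the 4 males, and ranged from 1 to 2 when single mice were left out. In Pkd1KO+ciliaKO against noncystic males the count of 0 became 2 with DESeq2 (Tsc2 and Mtor), 1 without the 4 males (Tsc2) and 0 to 2 without single mice (Eif4ebp1 without noncystic male 3, Mtor without noncystic male 5, Tsc2 without Pkd1KO+ciliaKO male 8, both Tsc2 and Mtor without male 9). In Pkd1KO against Pkd1KO+ciliaKO females the 1 member became 2 in all 3 settings of limma on TPM (Tsc2 and Mtor). The cause of these changes was not tested.

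Replicate numbers did not pair the mice, since correlations of same-numbered mice ran from -0.28 to 0.28. Litter is not given in the sources used here. Some animal numbers in the sample descriptions lie close together across genotypes, and pairing by them was not tested. With the replicate block 1 member was called in Pkd1KO+ciliaKO against noncystic males (Mtor, -0.59, adjusted p = 0.0411), and the other 5 genotype comparisons kept their count of members. The block lowered the number of genes called from 603 to 178 in Pkd1KO against Pkd1KO+ciliaKO males, from 1422 to 765 in Pkd1KO+ciliaKO against noncystic males, from 533 to 298 in Pkd1KO against noncystic females, from 1869 to 625 in Pkd1KO against Pkd1KO+ciliaKO females and from 405 to 74 in Pkd1KO+ciliaKO against noncystic females.

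Other settings moved the number of genes called by more than 1.5 times. DESeq2 gave 1640 where edgeR gave 1008 in Pkd1KO against noncystic males, 1234, 2157, 962 and 1279 in place of 603, 1422, 533 and 405, and 29, 72 and 21 in place of 2, 35 and 5 for the sex differences. Limma gave 556 to 669 in place of 1008, 930 in place of 1422 with a mean TPM of at least 1, and 1000 to 1214 in place of 405. One fit of 3 genotypes gave 929 in place of 603. Without the 4 males 2240 replaced 1422, without the 2 female libraries 926 replaced 405, and without all 6 the first sex difference had 0 genes. Leaving out noncystic male 3 raised 1422 to 2359, noncystic female 6 lowered 533 to 349 and Pkd1KO+ciliaKO female 3 lowered 1869 to 1241. The 405 genes of Pkd1KO+ciliaKO against noncystic females fell to 86, 101, 89 and 104 without noncystic females 2, 3, 6 and 7, rose to 746 without noncystic female 5, and fell to 8, 8 and 13 without Pkd1KO+ciliaKO females 2, 3 and 4. Each member had at least 1074 counts per mouse, which does not speak for the other genes. The part of depth in these numbers of called genes was not tested.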
